A study of Mus musculus with 21 samples.

Results

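A set of 9 genes linked to the resting state of naive CD8 T cells is described here, out of the 17516 genes measured: the transcription factors Foxo1, Foxp1, Bach2, Satb1 and Myb, the antiproliferative genes Btg1, Btg2 and Tob1, and the ubiquitin ligase gene Dtx1. The rule that chose them names the genes and uses no measured value, but they were chosen with earlier results of these data known. All 9 were present in every table. The study grew mouse OT1 CD8 T cells, whose transgenic T cell receptor recognises an ovalbumin peptide, and counted RNA molecules in single cells. A single library was made from naive cells before culture at day 0, with no treatment. The other 20 came from cells activated at day 0 with beads that carried antibodies to CD3 and CD28. Of these, 2 were grown without added cytokine, to day 3 and to day 5. The remaining 18 were grown to day 3, day 5 or day 10 with 5 or 50 IU/mL of IL-2, IL-15 or IL-2v, which the labels name mutant IL-2bg, an IL-2 variant with impaired binding to the receptor chain CD25. Each of the 21 conditions was 1 library, and the labels do not give the number of mice or cultures behind it. No condition has a replicate, no test was run on any difference, and the intervals below are exact 95% intervals that cover counting error only. The treatment labels of the 50 IU/mL IL-2 and IL-15 libraries name interleukin-3 and interleukin-16; the titles and the design text were followed.

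A naive T cell stays small and undivided through an active programme rather than by default. FOXO1 is held in the nucleus while PI3K-AKT signalling is low, and there drives genes for survival and trafficking such as Il7r and Klf2; FOXP1 keeps naive cells from leaving quiescence, BACH2 represses effector genes at AP-1 sites, SATB1 organises chromatin, and MYB supports long-lived, stem-like CD8 T cells. BTG1, BTG2 and TOB1 bring the CCR4-NOT deadenylase to messenger RNAs and shorten their poly(A) tails, and Deltex 1, the product of Dtx1, is a Notch-pathway ubiquitin ligase known from T cell anergy.

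The promoters of 3 members are shown because they hold core elements for factors that act on this programme. A promoter here is the 300-base window from 250 bases before to 50 bases after a RefSeq start in GRCm38.p6, and the table held at least 1 for each of the 9 genes, with 3 for Foxp1 and 5 for Satb1. These 4 elements were searched on both strands: the FOXO core TGTTTAC, the STAT5 core TTCNNNGAA, the AP-1 core TGAGTCA and the ETS core CCGGAAG. The FOXO core was found in the promoters of Btg1 and Myb and was present in 3.65% of all 32851 promoters. The STAT5 core, present in 8.3% of promoters, and the ETS core, present in 8.86%, were both found in the Bach2 promoter, without overlap. The AP-1 core, present in 5.2%, was in none of the members' windows. Capitals mark the matches, at position -204 from the start in Btg1, at position 34 in Myb, and at positions -140 (STAT5) and -12 (ETS, read on the other strand) in Bach2. A match is a description of the letters and not evidence of binding.
Btg1, chr10:96616751-96617050, plus strand: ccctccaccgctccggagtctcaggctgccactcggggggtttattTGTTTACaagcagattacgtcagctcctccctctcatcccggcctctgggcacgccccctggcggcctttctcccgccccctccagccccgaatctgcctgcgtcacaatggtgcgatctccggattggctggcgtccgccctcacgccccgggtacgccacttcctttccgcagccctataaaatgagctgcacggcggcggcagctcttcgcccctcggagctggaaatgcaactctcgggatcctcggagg
Myb, chr10:21160935-21161234, minus strand: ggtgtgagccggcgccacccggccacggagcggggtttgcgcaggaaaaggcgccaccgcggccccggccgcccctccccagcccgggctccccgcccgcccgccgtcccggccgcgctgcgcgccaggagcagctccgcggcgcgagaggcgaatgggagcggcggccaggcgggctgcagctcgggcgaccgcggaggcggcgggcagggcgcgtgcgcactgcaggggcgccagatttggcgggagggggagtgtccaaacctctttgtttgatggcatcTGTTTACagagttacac
Bach2, chr4:32417185-32417484, plus strand: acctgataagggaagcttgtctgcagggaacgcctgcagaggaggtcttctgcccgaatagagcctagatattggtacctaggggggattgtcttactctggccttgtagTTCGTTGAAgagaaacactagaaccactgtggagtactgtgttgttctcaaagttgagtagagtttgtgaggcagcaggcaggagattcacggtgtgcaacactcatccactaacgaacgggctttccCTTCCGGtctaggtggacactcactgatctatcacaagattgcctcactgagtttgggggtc
The Bach2 start lies inside the longer gene model of GENCODE (chromosome 4, 32238804 to 32586108), so the window is 1 of the gene's possible promoters. Btg1 (chromosome 10, 96617006 to 96622809) and Myb (chromosome 10, 21124935 to 21160984) lie on opposite strands of 1 chromosome.

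The libraries held 3250 to 7105 kept cells and 10589950 to 32648496 UMIs (unique molecular identifiers, tags that mark single captured RNA molecules). Levels are UMIs summed over a library's cells and scaled to the same total in each library (CPM), so a gene is compared with itself across libraries. Shares of cells are given after every cell was thinned to 2000 UMIs. The 6 CD8 T cell markers summed to 2238 CPM or more in every library, and the 2 CD4 T cell markers summed to at most 4.76 CPM. The 2 NK cell markers summed to 36.7, 22.0 and 21.3 CPM at day 10 with 50 IU/mL IL-2v, 5 IU/mL IL-2 and 50 IU/mL IL-2 and to at most 3.57 CPM in the other 18 libraries, with Ncr1 at 0.0336 CPM or less throughout. The 5 myeloid markers summed to 63.7 to 130.4 CPM, most of it Cst3, and the 2 erythroid markers to at most 3.15 CPM. Of B cell markers, Cd79b stood at 1.47 to 17.1 CPM, Cd79a at up to 1.15 CPM and Ms4a1 at up to 0.0541 CPM. The share of cells with a UMI of Mki67 or Top2a, called cycling cells below and all others non-cycling, ran from 1.83% in the naive library to 78.5% at day 3 with 50 IU/mL IL-2v.

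**Figure D1:**
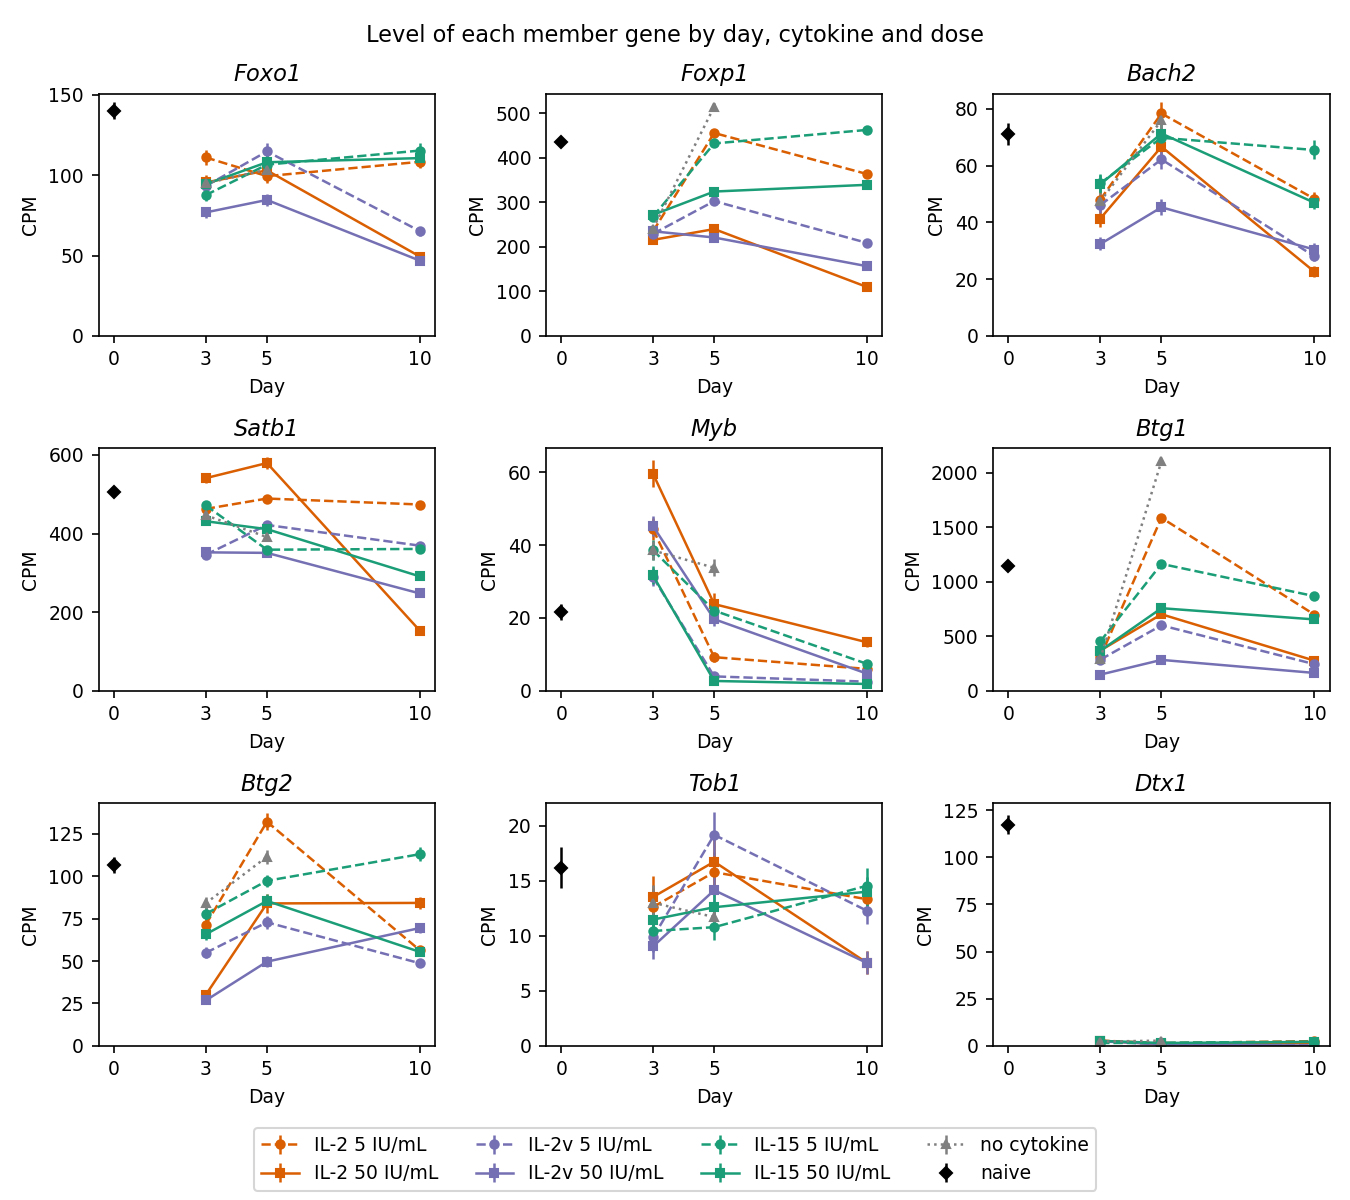
Level of each of the 9 genes in CPM (linear axis from 0) against day of culture, 1 panel per gene. Points are single libraries, colours are cytokines, dashed lines 5 IU/mL and solid lines 50 IU/mL, dotted lines no cytokine, the diamond is the naive library, and bars are exact 95% Poisson intervals. Dtx1 sits at 117 CPM in the naive library and at 2.78 CPM or less elsewhere, while Btg1 spans 149 to 2106 CPM.

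Btg1 had the widest range of the antiproliferative genes and was lowest in the library with the largest share of cycling cells. The naive library held 1140.3 CPM. At day 3, its 6 cytokine libraries held 149 CPM (50 IU/mL IL-2v), 286 (5 IU/mL IL-2v), 310 (5 IU/mL IL-2), 367 (50 IU/mL IL-15), 369 (50 IU/mL IL-2) and 453 (5 IU/mL IL-15), and the library without cytokine 293. At day 5 they held 284 (50 IU/mL IL-2v), 601 (5 IU/mL IL-2v), 702 (50 IU/mL IL-2), 758 (50 IU/mL IL-15), 1164 (5 IU/mL IL-15) and 1587 CPM (5 IU/mL IL-2), and 2106 without cytokine, the highest of all 21. At day 10 they held 164 (50 IU/mL IL-2v), 244 (5 IU/mL IL-2v), 277 (50 IU/mL IL-2), 655 (50 IU/mL IL-15), 699 (5 IU/mL IL-2) and 868 CPM (5 IU/mL IL-15). In words, Btg1 was low in every day 3 library, was highest at day 5 without cytokine and with the low doses of IL-2 and IL-15, and was low again at day 10 with either dose of IL-2v and with 50 IU/mL IL-2. Of the 20 steps between neighbours in the order of levels, 6 had overlapping counting intervals, which leave out any spread between cultures. A Btg1 UMI was found in 95.2% of cells at day 5 without cytokine, in 85.5% of naive cells and in 25.2% of cells at day 3 with 50 IU/mL IL-2v.

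Btg2, the close relative of Btg1, had a narrower range. It stood at 107 CPM in the naive library, at 26.8 CPM in its lowest library (day 3, 50 IU/mL IL-2v) and at 132 CPM in its highest (day 5, 5 IU/mL IL-2). At day 3 the 2 libraries with 50 IU/mL of IL-2 or IL-2v, at 30.0 and 26.8 CPM, lay apart from the other 5, which held 54.8 to 84.0 CPM. At day 10 the highest was 5 IU/mL IL-15 at 113 CPM and the lowest 5 IU/mL IL-2v at 48.7 CPM. Tob1, whose protein binds the same deadenylase, was scarce, with 7.51 to 19.2 CPM and 16.1 CPM in the naive library. Each of its 20 neighbouring steps had overlapping intervals, so its order of libraries cannot be read beyond the extremes.

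Foxo1 was highest in the naive library, at 140.3 CPM (interval 135 to 146), above all 20 activated libraries, of which the highest held 115 CPM (5 IU/mL IL-15, day 10). Its 6 cytokine libraries held 76.8 to 111 CPM at day 3 and 84.6 to 115 CPM at day 5. At day 10 they split, with 108, 111 and 115 CPM for 5 IU/mL IL-2, 50 IU/mL IL-15 and 5 IU/mL IL-15, against 65.2, 49.4 and 46.8 CPM for 5 IU/mL IL-2v, 50 IU/mL IL-2 and 50 IU/mL IL-2v. A Foxo1 UMI was found in 23.5% of naive cells, the highest share, and in 9.05% of cells at day 10 with 50 IU/mL IL-2v, the lowest.

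Foxp1 showed the same split at day 10. Unlike Foxo1, it was near or above the naive level at day 5, but only without cytokine and with 5 IU/mL of IL-2 and IL-15. It stood at 436 CPM in the naive library and at 241 CPM at day 3 without cytokine, and the 6 day 3 cytokine libraries held 215 to 272 CPM. At day 5 it was at 514 CPM without cytokine, 455 and 432 CPM with 5 IU/mL of IL-2 and IL-15, 302 CPM with 5 IU/mL IL-2v, and 324, 239.7 and 221 CPM with 50 IU/mL of IL-15, IL-2 and IL-2v. At day 10 it was at 462, 363 and 339 CPM with 5 IU/mL IL-15, 5 IU/mL IL-2 and 50 IU/mL IL-15, and at 209, 156 and 109 CPM with 5 IU/mL IL-2v, 50 IU/mL IL-2v and 50 IU/mL IL-2. The library with 5 IU/mL IL-15 was thus near the naive level from day 5 to day 10, whereas 50 IU/mL IL-2 ended lowest.

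Bach2 stood at 71.0 CPM in naive cells. Its 6 cytokine libraries held 32.3 to 53.8 CPM at day 3, 45.3 to 78.4 CPM at day 5 and 22.6 to 65.5 CPM at day 10. At each day the lowest 3 were those with 50 IU/mL IL-2 and with 5 and 50 IU/mL IL-2v. Of the 20 steps between neighbours in its order of levels, 17 had overlapping counting intervals. At day 3 these 3 were set off only by 46.1 CPM (5 IU/mL IL-2v) against 48.0 CPM (5 IU/mL IL-2). At day 5 it was 66.7 CPM (50 IU/mL IL-2) against 69.8 CPM (5 IU/mL IL-15), so the ranking is not firm at those days. Satb1 stood at 506 CPM in naive cells. It stood at 541 and 579 CPM with 50 IU/mL IL-2 at days 3 and 5, the 2 highest of all libraries, and then at 153 CPM with the same cytokine at day 10, the lowest of all. The other 5 cytokine libraries of day 10 held 248 to 474 CPM. With 5 and 50 IU/mL IL-2v it was at 346 and 352 CPM at day 3 and at 422 and 351 CPM at day 5.

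Myb did not follow the others. It stood at 21.6 CPM in the naive library, 11th of the 21, and was above that in all 7 libraries of day 3, which held 31.2 to 59.5 CPM with 50 IU/mL IL-2 highest. At day 5 it was at 33.8 CPM without cytokine, 23.8, 22.0 and 19.7 CPM with 50 IU/mL IL-2, 5 IU/mL IL-15 and 50 IU/mL IL-2v, and 9.23, 3.96 and 2.71 CPM with 5 IU/mL IL-2, 5 IU/mL IL-2v and 50 IU/mL IL-15. At day 10 all 6 libraries were below the naive level, from 13.3 CPM with 50 IU/mL IL-2 to 1.88 CPM with 50 IU/mL IL-15. The share of cells with a Myb UMI was 10.8% at its highest (day 3, 50 IU/mL IL-2) and 0.376% at its lowest (day 5, 50 IU/mL IL-15).

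Dtx1 marked the naive library almost alone. The naive library held 2167 UMIs, or 117 CPM (112 to 122), and the 20 activated libraries held 2 to 74 UMIs, or 0.0733 to 2.78 CPM. A Dtx1 UMI was found in 20.3% of naive cells (19.1 to 21.5) and in at most 0.613% of the cells of an activated library, with none in 4948 thinned cells at day 10 with 50 IU/mL IL-2v, where a floor of 3 counts allows a share of up to 0.0606%. Without thinning, 0.0393% of that library's cells held one. No cell type that should lack the gene was sequenced beside these cells; for scale, a UMI of Cd4 was found in at most 0.559% of the cells of a library, so no difference is read from Dtx1 shares among activated libraries. In counts, the 2 IL-2v libraries of day 10 were the lowest, with 7 UMIs (5 IU/mL) and 2 UMIs (50 IU/mL), against 41 to 74 in the other 4 of that day. The ratio to the naive CPM was 0.00183 (0.000734 to 0.00377) and 0.000625 (7.56e-05 to 0.00226) in these 2.

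**Figure D2:**
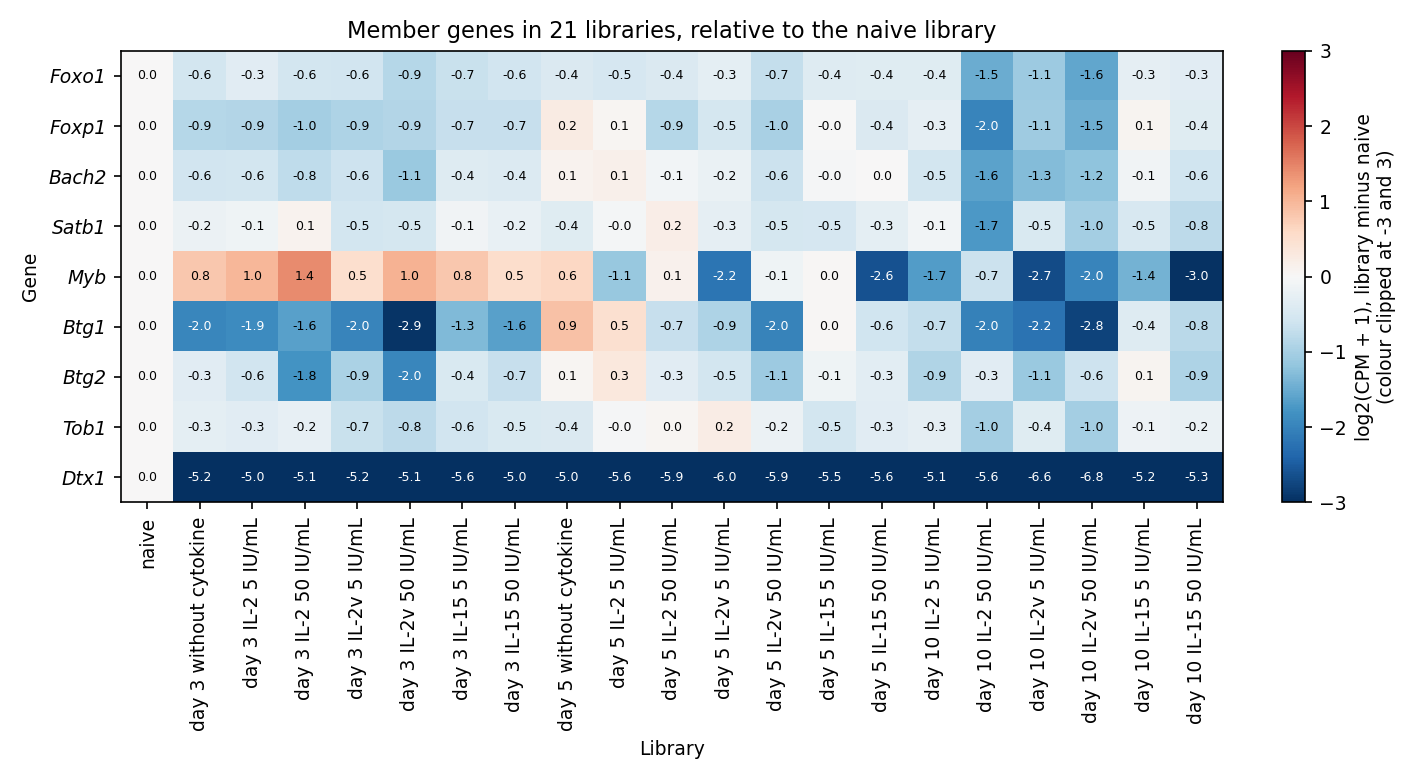
Difference of log2(CPM + 1) between each of the 21 libraries (columns, by day, cytokine and dose) and the naive library for the 9 genes (rows), with the value written in each cell and the colour clipped at -3 and 3. Dtx1 is at -4.97 or lower in all 20 activated libraries, Myb is above 0 in all 7 day 3 libraries, and 50 IU/mL IL-2, 5 IU/mL IL-2v and 50 IU/mL IL-2v at day 10 are at -1 or lower for 7, 7 and 8 of the 9 genes. Of all genes at 20 CPM or more in either library, 22.4%, 9.48% and 14.9% were past 2-fold lower there. The counts are over all 9 genes, with Tob1 under that filter and Dtx1 and Myb passing it through the naive library alone.

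The comparison of day 3 without cytokine against naive cells is called activation here. No library was cultured without the beads, so bead activation, time in culture and the change in cycling cannot be told apart in it. Btg1 was 3.89-fold lower (ratio 0.257, interval 0.25 to 0.264) and Dtx1 52.2-fold lower (ratio 0.0192, 0.0142 to 0.0253). Genes at 20 CPM or more in either library were compared, and one was called where the log2(CPM + 1) difference was at least 1 in size, a scale that understates changes of low genes. Of the 8 members tested, 2 were called lower, where 8.31% of all 6171 genes were, and 0 were called higher, where 11.1% were. Tob1 was under the filter, and Dtx1 passed it through the naive library alone, so nothing is read from its part in the count of 2. Short of the limit were Foxp1 (-0.85), Bach2 (-0.57), Foxo1 (-0.56), Btg2 (-0.34), Satb1 (-0.18) and, in the other direction, Myb (0.81). The median over the 8 was -0.57, and over all genes -0.11. The sign for Btg2 was not stable, since in non-cycling cells its difference was 0.03.

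Across all 20 activated libraries against the same naive library, only Dtx1 was lower in every one with a median past 2-fold (median log2 -5.39, from -6.78 to -4.97). That was 1 of 8 members tested, where 4.09% of genes met the same rule, and 0 members were higher by it, where 3.74% of genes were. Dtx1 passed the filter through the naive library alone, so nothing is read from this count. Foxo1 was also below naive in all 20, with 3 of them past 2-fold. Btg1 was below naive in 17 and past 2-fold lower in 11, and Myb was below in 10, past 2-fold lower in 8 and past 2-fold higher in 3.

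Without cytokine, the cells went from 51.1% cycling at day 3 to 8.30% at day 5, and Btg1 and Foxp1 were higher at the later day. Btg1 was 7.18-fold higher (7.00 to 7.37) and Foxp1 2.14-fold higher (2.07 to 2.21). These were 2 of 7 members tested, where 3.61% of genes were called higher, and 0 members were called lower, where 9.47% of genes were. Bach2 (0.67) and Btg2 (0.40) lay in the same direction below the limit, Foxo1 (0.12), Satb1 (-0.19) and Myb (-0.18) near 0. The sign for Myb turned in non-cycling cells (0.37) and with at most 5% mitochondrial UMIs (0.05). The median over the 7 members was 0.40, and over all genes 0.00. The 4 memory CD8 T cell markers (Ccl5, Cd44, Cxcr3, Il2rb) summed to 692 CPM at day 3 and 1828 CPM at day 5 without cytokine, the highest of the 21 libraries, and a Ccl5 UMI was found in 13.4% and 44.1% of cells. Most of the rise was Ccl5, at 177 CPM at day 3 and 1482 CPM at day 5. Cxcr3 went from 102 to 181 CPM. Cd44 and Il2rb, at 57.5 and 355 CPM at day 3, together held less at day 5. In the naive library the 4 markers summed to 1032 CPM, more than at day 3 without cytokine. Ccl5 was at 885 CPM there, with a UMI in 10.1% of cells, so the reference library also held cells with this memory marker. The part of cycling or of these markers in the differences was not tested.

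The cytokine libraries of a day were each set against the 1 library without cytokine of that day, which all 6 comparisons therefore share. At day 3 Btg2 was past 2-fold from the control. Btg2 was 2.80-fold lower with 50 IU/mL IL-2 (ratio 0.357, 0.323 to 0.395) and 3.14-fold lower with 50 IU/mL IL-2v (0.318, 0.290 to 0.349). They were the 2 called lower among 42 tested member values, where 0.897% of values over all genes were, and no member value was called higher, where 2.7% were. By culture, in the order 5 and 50 IU/mL IL-2, 5 and 50 IU/mL IL-2v, 5 and 50 IU/mL IL-15, the share of all genes called lower was 0.106%, 2.74%, 0.0704%, 1.75%, 0.285% and 0.261%, and the share called higher 0.142%, 6.45%, 0.211%, 7.83%, 0.142% and 0.819%. Btg1 was just under the limit with 50 IU/mL IL-2v (-0.98) and passed it under 5 alternatives, from -1.26 in non-cycling cells to -1.05 without cells of high UMI count. Bach2 passed it there in non-cycling cells (-1.07).

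By day 5 every value past the limit was lower than the control: 10 of 42 tested member values were called lower, where 3.2% of all values were, and 0 higher, where 9.94% were. By culture, the members called lower were 1 of 7 with 5 IU/mL IL-2 (0.36% of genes), 2 with 50 IU/mL IL-2 (7.54%), 2 with 5 IU/mL IL-2v (2.62%), 3 of 7 with 50 IU/mL IL-2v (5.53%), 0 with 5 IU/mL IL-15 (0.321%) and 2 with 50 IU/mL IL-15 (1.9%). In the same order, 2.14%, 16.5%, 9.75%, 21.1%, 1.42% and 5.82% of genes were called higher. Btg1 was lower with 50 IU/mL IL-2v (7.42-fold), 5 IU/mL IL-2v (3.51-fold), 50 IU/mL IL-2 (3.00-fold) and 50 IU/mL IL-15 (2.78-fold). Myb was lower with 50 IU/mL IL-15 (12.5-fold, ratio 0.0801, 0.0610 to 0.104), 5 IU/mL IL-2v (8.53-fold) and 5 IU/mL IL-2 (3.66-fold), 3 of the 10 calls, in which it passed the filter through the control library alone. Nothing is read from these 3 calls. They make up the whole count with 5 IU/mL IL-2 and part of those with 5 IU/mL IL-2v and 50 IU/mL IL-15. In non-cycling cells Myb also passed the limit with 50 IU/mL IL-2 (-1.16, against -0.49 in all cells) and 50 IU/mL IL-2v (-1.39, against -0.75), the latter also with TMM scaling (-1.07). Foxp1 was lower with 50 IU/mL IL-2v (2.33-fold) and 50 IU/mL IL-2 (2.15-fold). Btg2 was lower with 50 IU/mL IL-2v (2.25-fold), a call that was lost in non-cycling cells (-0.88). Foxo1, Satb1 and Bach2 were within 2-fold of the control in all 6 comparisons, from -0.29 to 0.15, -0.16 to 0.57 and -0.73 to 0.04, although Bach2 with 50 IU/mL IL-2v passed the limit with TMM scaling (-1.06). The day 5 control held the highest Btg1 and Foxp1 of all 21 libraries, and 8.30% of its cells were cycling against 12.4% to 60.1% in the 6 others; the part of cycling was not tested.

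Between cytokines at equal day and dose, over 6 pairs, Btg1 was the member called for IL-2v. It was lower with IL-2v than with IL-2 in all 6 pairs (median -1.31, from -1.51 to -0.12) and lower than with IL-15 in all 6 (median -1.36, from -1.99 to -0.66). A call here required the same sign in every pair and a median of at least 1 in size. The median over the members tested was -0.34 against IL-2 and -0.58 against IL-15, where that over all genes was 0.06 and 0.10. Against IL-2 this was 1 of 7 members tested, where 0.274% of genes were called lower, and 0 were called higher (1.04% of genes). Against IL-15 it was 1 of 6, where 0.585% of genes were, with 0 higher (2.48%). The 2 comparisons share the IL-2v libraries. The smallest of the 6 differences from IL-2 was that of 5 IU/mL at day 3, and in non-cycling cells the median against IL-2 was -1.19 but not all pairs had 1 sign, so the call was lost. Myb was also lower with IL-2v than with IL-2 in all 6 pairs, with a median short of the limit (-0.75, from -1.33 to -0.26), as was Btg2 (-0.33, from -0.85 to -0.16). Foxp1 (-0.53) and Bach2 (-0.63) were lower with IL-2v than with IL-15 in all 6 pairs, also short of it. Between IL-15 and IL-2, 0 of 7 members were called (0.49% of genes higher, 1.7% lower). In the 50 IU/mL pair at day 10, also singled out after its values were seen, Foxp1 (1.62), Btg1 (1.24), Foxo1 (1.15) and Bach2 (1.02) were past 2-fold higher with IL-15, 4 of 6 members tested, where 9.86% of genes were, and 0 were lower, where 11.6% were. TMM factors of 0.874 (IL-15) and 0.822 (IL-2) would take Bach2 under the limit there. Btg2 was at -0.60 in that pair and at 1.10 in the 50 IU/mL pair of day 3. Myb, under the filter in the day 10 pair, was at -2.31 there, at -2.74 in the 50 IU/mL pair of day 5 and at 1.17 in the 5 IU/mL pair of day 5.

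**Figure D3:**
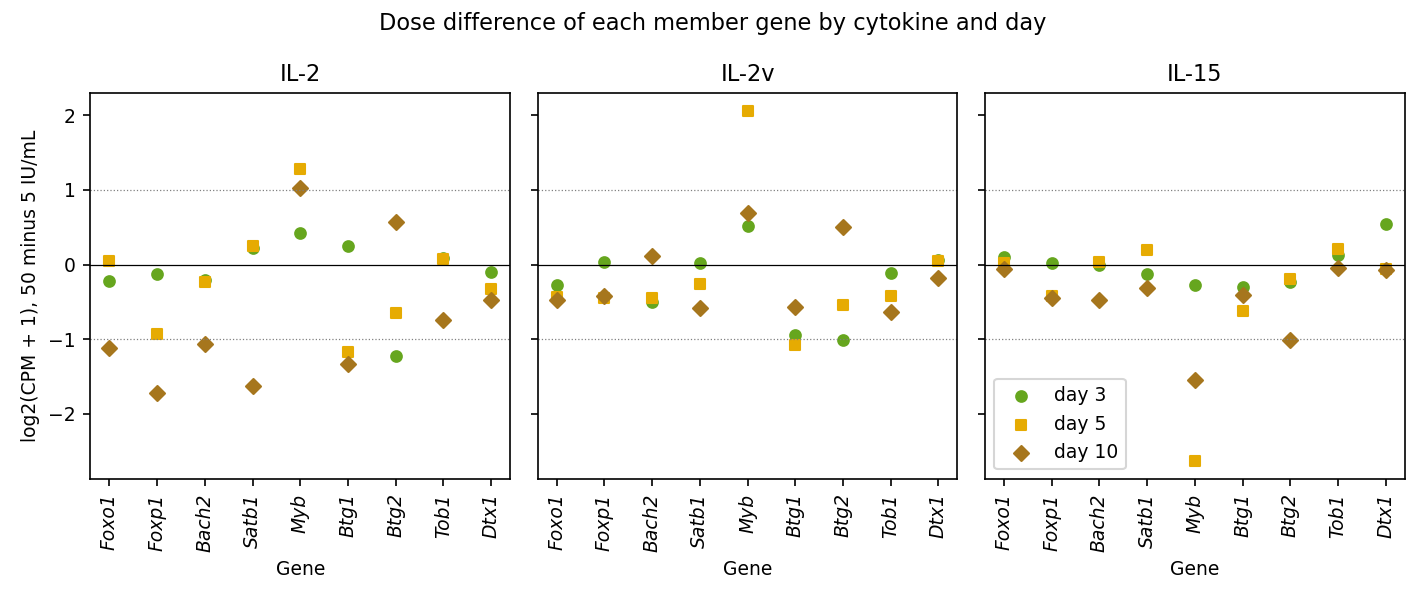
Difference of log2(CPM + 1) between 50 and 5 IU/mL of the same cytokine and day, 1 panel per cytokine, for the 9 genes, with marker shape and colour by day and dotted lines at the 2-fold limits of -1 and 1. Myb lies above 0 throughout the IL-2 and IL-2v panels and below 0 throughout that of IL-15, and with IL-2 the day 10 values of Satb1 and Foxp1 reach -1.63 and -1.72.

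The dose comparison, 50 against 5 IU/mL at days 3, 5 and 10, brought out Myb, which had opposite signs for different cytokines. With IL-2 it was higher at the high dose at all 3 days (median 1.03, from 0.42 to 1.28), 1 of 7 members tested, where 4.29% of genes were called higher, with 0 lower (2.7%). With IL-15 it was lower at the high dose at all 3 days (median -1.54, from -2.63 to -0.28), 1 of 7, where 0.181% of genes were called lower, with 0 higher (0.869%). With IL-2v it was higher at all 3 days (0.70, from 0.52 to 2.06) without reaching the limit, and 0 of 7 members were called (2.38% of genes higher, 0.626% lower). The members' median was -0.23 for the IL-2 doses, -0.44 for those of IL-2v and -0.24 for those of IL-15, against 0.03, 0.10 and 0.02 over all genes. Myb passed the filter through its higher side alone in all 3 dose comparisons, with means of 32.2 against 19.8 CPM for 50 and 5 IU/mL IL-2, 23.2 against 12.5 CPM for IL-2v and 12.1 against 22.7 CPM for IL-15, so nothing is read from those counts of 1. Both Myb calls depend on settings, and where the size stayed past 1 Myb no longer met the filter or the rule on signs. The IL-2 call was lost when any 1 day was left out (0.72 to 1.15 for Myb), at a pseudocount of 10 CPM (0.54), in non-cycling cells (0.74), with at most 5% mitochondrial UMIs (0.86) and with the mean of single cells (0.99). The IL-15 call was lost without day 5 (-0.91 for Myb), at a pseudocount of 10 CPM (-0.55), without day 3 (-2.09) and in non-cycling cells (-1.63). All 3 libraries of 50 IU/mL IL-2 and of 50 IU/mL IL-15 are those with conflicting treatment labels.

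At day 10 alone, a pair singled out after its values were seen, 5 of 6 members tested were past 2-fold lower at the high dose of IL-2, where 14.5% of genes were, and 0 higher, where 6.57% were. None of the 5 was called by the rule over 3 days. TMM factors of 0.822 (50 IU/mL) and 1.02 (5 IU/mL) would move each difference of this pair upward, which takes Foxo1 and Bach2 under the limit. The median was -1.23 over the 6 members and -0.30 over all genes. Foxp1 was 3.32-fold lower at 50 than at 5 IU/mL (ratio 0.301, 0.289 to 0.314), Satb1 3.10-fold lower (0.322, 0.311 to 0.334), Btg1 2.52-fold lower (0.396, 0.386 to 0.407), Foxo1 2.20-fold lower (0.455, 0.427 to 0.485) and Bach2 2.14-fold lower (0.468, 0.425 to 0.515). At day 3 the same 5 genes differed by -0.22 to 0.25 between the doses of IL-2, and at day 5 Btg1 (-1.18) and Foxp1 (-0.92) were already lower at the high dose. Btg2 had the other sign at day 10 (0.57). With IL-15 at day 10, none of these 5 reached 2-fold between doses, the largest being Bach2 (-0.47), but Btg2 was past 2-fold lower at the high dose (-1.02). With IL-2v at day 10 the largest of the 5 was Satb1 (-0.57) beside Btg1 (-0.57).

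Over time within the 6 cytokine cultures, Btg1 was higher at day 5 than at day 3 in all 6 (median 1.06, from 0.93 to 2.35), and Myb was lower in all 6 (median -1.72, from -3.14 to -0.78). Of 7 members tested these were 1 called higher, where 0.829% of genes were, and 1 lower, where 2.22% were. Myb passed the filter through its day 3 side alone (means of 41.7 CPM at day 3 and 13.6 CPM at day 5), so nothing is read from that count. The Btg1 call was lost in non-cycling cells (0.91). From day 5 to day 10, 0 of 6 members tested were called (0.0705% of genes higher, 1.62% lower), although Btg1 (-0.98, from -1.34 to -0.21) and Bach2 (-0.64, from -1.52 to -0.09) were lower in all 6.

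At day 10, 3 of the 6 cultures had more members past 2-fold below the naive level than the other 3. With 50 IU/mL IL-2v, 7 of 8 members tested were past 2-fold lower, where 14.9% of genes were; with 5 IU/mL IL-2v, 7 of 8, where 9.48% were; and with 50 IU/mL IL-2, 6 of 8, where 22.4% were. With 5 IU/mL IL-2, 5 IU/mL IL-15 and 50 IU/mL IL-15 it was 2 of 8 each, where 5.54%, 3.55% and 6.21% of genes were, and in each of these 3 the 2 were Dtx1 and Myb. Both passed the filter through the naive library alone at day 10, so these counts, and the part of the others that rests on these 2 genes, are descriptions only. The median difference from naive over the 8 members was -1.52, -1.21 and -1.67 in the first 3 libraries and -0.63, -0.34 and -0.80 in the others, against -0.30 to 0.00 over all genes tested in these 6. The 7 of 8 for 5 IU/mL IL-2v became 4 of 8 with TMM scaling. These 6 counts share 1 naive library. The NK cell markers were highest in 3 of these 6 libraries, 2 with IL-2 and the one with the higher dose of IL-2v, and their part in the counts was not tested. Shares of cycling cells had another order: 8.54% of cells were cycling with 50 IU/mL IL-2, 31.5% and 17.4% with 5 and 50 IU/mL IL-2v, 11.4% with 5 IU/mL IL-2, and 2.73% and 7.49% with 5 and 50 IU/mL IL-15.

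Seen per cell, fewest of the genes were detected at day 10 with the high doses of IL-2 and IL-2v. Of the 9 genes, a naive cell thinned to 2000 UMIs held a UMI of 2.83 on average, a cell at day 5 without cytokine 2.71, one at day 3 without cytokine 1.90, and one at day 10 with 5 IU/mL IL-15 2.43. The lowest means were 1.21 and 1.23, at day 10 with 50 IU/mL of IL-2 and IL-2v. Without Dtx1 the naive mean was 2.63, below the 2.71 of day 5 without cytokine and the 2.67 of day 5 with 5 IU/mL IL-2, so the place of the naive cells as highest turns on that gene. Cells with none of the 9 were 1.54% of naive cells, and 25.5% and 24.3% of cells in those last 2 libraries.

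**Figure D4:**
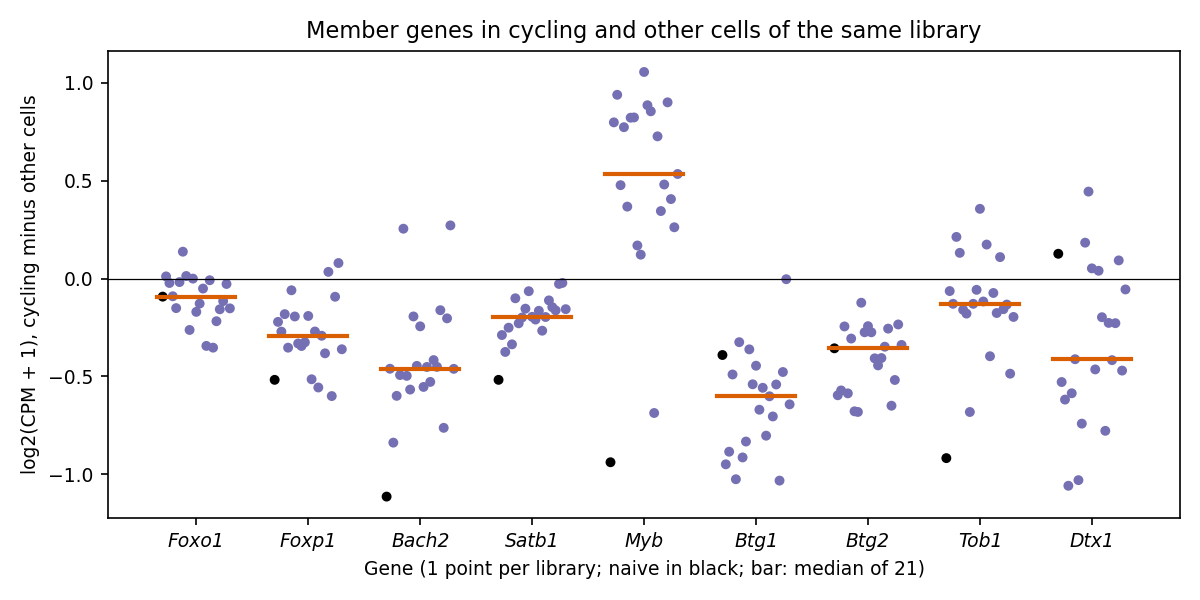
Difference of log2(CPM + 1) between cycling cells (with a Mki67 or Top2a UMI) and the other cells of the same library, 1 point per library for each of the 9 genes, the naive library in black, the bar at the median of 21. All 21 points lie below 0 for Btg1, Btg2 and Satb1, and 19 of 21 lie above 0 for Myb.

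Within each library, cycling cells held less Btg1, Btg2 and Satb1 than the other cells in 21 of 21 libraries. The median differences were -0.60 for Btg1 (from -1.03 to 0.00), -0.36 for Btg2 and -0.20 for Satb1. Bach2 (-0.46) and Foxp1 (-0.29) were lower in cycling cells in 19 of 21, Foxo1 (-0.09) in 18, and Myb was higher in 19 of 21 (0.53), with the naive library, of 144 cycling cells, among the 2 exceptions. No member met the 2-fold rule, 0 of 7 tested, where 3.17% of genes were called higher and 0.0173% lower, and the median over all genes tested was 0.07. Cycling cells were deeper in every library, for instance a median of 5372.5 against 3780.5 UMIs at day 3 without cytokine. In cells thinned to 2000 UMIs, the share with a Btg1 UMI was lower among cycling cells in 20 of 21 libraries, the share with a Btg2 UMI in 21, Bach2 in 20, Satb1 and Foxp1 in 18 each, Foxo1 in 12 and Myb in 4. At day 3 without cytokine it was 32.0% of cycling and 51.3% of other cells for Btg1.

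Lists of genes around the members were examined in the same comparisons. For activation, their counts stand beside 8.31% of all genes called lower and 11.1% called higher. Among 17 genes driven or induced by FOXO factors, 14 were tested for activation, of which 4 were called lower (Il7r -1.69, Klf2 -1.67, S1pr1 -1.43, Rictor -1.13) and 0 higher, with a median of -0.57 against -0.11 over all genes tested. Of 17 genes of the PI3K-AKT pathway, 13 were tested and Sgk1 (-2.64) and Inpp4b (-1.13) were called lower, with a median of -0.63. At 50 against 5 IU/mL IL-2, over the 3 days, S1pr1 (-2.14), Tcf7 (-2.07) and Klf2 (-2.02) were among the genes called lower, where 2.7% of all genes were, and Foxo1 had differences of -0.22, 0.05 and -1.12. For 50 against 5 IU/mL IL-2v they were S1pr1 (-2.55), Klf2 (-1.94), Tcf7 (-1.67) and Ccr7 (-1.62), 4 of 14, where 0.626% of all genes were called lower, and for IL-15 it was Il7r alone (-1.09), 1 of 14, where 0.181% were.

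The deadenylase that BTG and TOB proteins bind was examined by its genes. Of 16 genes of CCR4-NOT and the poly(A) machinery, 15 were tested for activation and 1 was called, Cnot4 (-1.07), with a list median of -0.13. None of the 14 or 15 tested was called in any of the 3 comparisons between cytokines or the 3 between doses, with medians of at most 0.16 in size. Elsewhere, Pabpc4 was higher than without cytokine with 50 IU/mL IL-2 (1.2) and 50 IU/mL IL-2v (1.38) at day 3 and with 50 IU/mL IL-2v at day 5 (1.33). Cnot9 was higher than without cytokine at day 5 with 5 (1.03) and 50 IU/mL IL-2v (1.56) and lower from day 3 to day 5 without cytokine (-1.22), and Cnot3 was lower from day 5 to day 10 (-1.14). These were 1 of 14 or 15 tested each, or 2 of 15 at day 5 with 50 IU/mL IL-2v. Of all genes, 6.45% and 7.83% were higher in the day 3 comparisons, and 9.75% and 21.1% in those of day 5. Called lower were 9.47% without cytokine and 1.62% from day 5 to day 10. Of 17 Notch pathway genes, 10 were tested for activation and 2 were called lower, Numb (-1.20), a Notch inhibitor, and Lfng (-1.16), with a median of -0.63. Of 17 paralogs of the members, 13 were in the tables and 7 tested for activation, where Dtx3 was higher (1.42) and Bach1 lower (-1.10). Among 17 other regulators of quiescence, 14 were tested and Runx1 (-1.65) and Lef1 (-1.11) were called lower. In contrast, 8 of 12 tested effector transcription factors were called higher, with Irf4 (4.29), Zbtb32 (4.16), Irf8 (3.98) and Bhlhe40 (3.40) leading, and 2 lower, Maf (-2.15) and Eomes (-1.63), and all 29 tested genes of the cell cycle list were higher. A gene that passed the filter through 1 of the compared libraries alone could be called in 1 direction only, so the list counts for activation are descriptions.

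Finally, the members were set beside each other and beside every gene that averaged 20 CPM or more by Pearson's r of log2(CPM + 1) over the 21 libraries, which share cytokines, days and total scaling, so r is a description. Bach2, Foxp1 and Btg1 went together (0.86 for Bach2 with Foxp1, 0.85 for Foxp1 with Btg1, 0.84 for Bach2 with Btg1), as did Foxo1 with Bach2 (0.83). Myb had an r between -0.17 and 0.31 with each of the other 8, though with Dtx1 it was 0.28 over 21 libraries and 0.53 over the 20 activated ones. The genes most like each member were Ctss (0.975), Ngrn and Tmem106b for Foxp1, Snrk (0.923), Tnrc6b and Prxl2c for Foxo1, Pcmtd2 (0.927), Tceanc2 and Tut4 for Bach2, and Jmjd1c (0.90), Sp3 and Zmynd11 for Satb1. They were Bfar (0.913), Mcl1 and Lgals8 for Btg1, Psenen (0.819), Cd3g and Map1lc3b for Btg2, and Dcaf15 (0.859), Batf3 and Spint2 for Myb. None are named for Tob1 and Dtx1, which averaged under 20 CPM. Ctss, the gene of cathepsin S, had the closest course of all: 108 CPM in naive cells, 148 CPM at its highest at day 5 without cytokine and 8.62 CPM at its lowest at day 10 with 50 IU/mL IL-2, which are also the highest and lowest libraries of Foxp1. With the share of cycling cells, r was -0.68 for Btg2, -0.64 for Btg1 and 0.60 for Myb, and between -0.44 and 0.28 for the other 6.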

How the data were processed

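The authors deposited a table of raw UMI counts of genes by cells for each of 21 libraries. Per the submitters' processing notes the tools were Cell Ranger and Seurat (3.0.2 and 4.0.1) with the genome build mm10; cell filters and doublet treatment are not given in the sources used here. The labels' protocols describe both culture of naive OT1 cells and a sort of CD8 T cells from tumours, and the samples were treated as cultured cells, as the titles and design text give them. Cultures of day 7 were not analysed here. Cells below 1000 UMIs or 500 genes, or above 10% mitochondrial UMIs, were left out, and no doublet caller was run. This kept 4456 of 4457 barcodes at day 3 without cytokine, 3250 of 3251 at day 5 with 50 IU/mL IL-2 and all barcodes elsewhere. Counts were summed per library and scaled to CPM (Python 3.11.15, numpy 2.4.6, scipy 1.17.1, pandas 2.3.3), and differences are of log2(CPM + 1). With 1 library per condition no count model was fitted. Genes at 20 CPM or more in the mean of either side were compared over the whole table, and a call required 2-fold in a single pair, or the same direction in every pair with a median of at least 2-fold. Poisson intervals (CPM) and Clopper-Pearson intervals (shares) are exact at 95%. The calling step was tested on simulated data with counting error alone and changes well past the limit, so that test does not cover spread between cultures. Alternatives were the cell filters, TMM scaling (edgeR 4.0.16, R 4.3.3), other totals, the mean of single cells, a pseudocount of 10 CPM, non-cycling cells alone, and leaving out a day; those for day 10 against naive were added after seeing the data. Genes named outside the members are at most 4 called genes of each list and direction, by size, and the 3 genes most like each member, given for members that averaged 20 CPM or more. Members and lists were chosen with earlier results of these data known. Some marker and list genes are not reported here.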

Additional observations from a re-analysis of the deposited data

Results flagged for a closer look

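Members whose differences had opposite signs for different cytokines in every pair are given here as medians on the log2(CPM + 1) scale. None of these differences between cytokines was tested. For 50 against 5 IU/mL over 3 days, Myb had 1.03 with IL-2 against -1.54 with IL-15, and 0.70 with IL-2v against the same -1.54. In all 3 it passed the filter through its higher side alone. At a pseudocount of 10 CPM the medians shrank to 0.54 with IL-2 and -0.55 with IL-15. The 50 IU/mL libraries of IL-2 and IL-15 also carry the conflicting treatment labels. The other patterns rest on 2 doses each. From day 3 to day 5, Satb1 had 0.09 with IL-2 (0.08 and 0.10) against -0.23 with IL-15 (-0.39 at 5 and -0.07 at 50 IU/mL). The last value lies near 0, and TMM factors of 1.09 (day 3) and 0.999 (day 5) would turn its sign. From day 5 to day 10, Foxp1 had -0.72 with IL-2 and -0.52 with IL-2v against 0.08 with IL-15 (0.07 and 0.10, also near 0). Tob1, which was under 20 CPM in every library and whose neighbouring levels all overlapped in counting error, had -0.64 with IL-2 and -0.72 with IL-2v against 0.27 with IL-15. Foxo1 had -0.82 with IL-2v against 0.07 with IL-15 (0.03 and 0.11). Its IL-15 values lie near 0, so their sign is not firm. Dtx1 had 0.44 with IL-2 and 0.30 with IL-15 against -0.73 with IL-2v, at 2.49 CPM or less in all these libraries.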

How the results depend on the processing

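Of 332 counts of called members under an alternative, 307 stayed within 1.5 times the value reported and 25 did not. Of 1438 values of single members, 1405 kept their direction and side of the limit or changed sign without a call, 19 passed the limit and 14 lost it. An alternative that only lifts the cell filters could hardly move a value, since the filters left out almost no cells. In non-cycling cells, the day 3 cytokine comparisons had 4 values lower instead of 2, IL-2v against IL-2 had 0 lower instead of 1, the IL-2 dose had 0 higher instead of 1, the IL-15 dose 0 lower instead of 1, day 5 against day 3 had 0 higher instead of 1, and day 10 against day 5 had 1 lower instead of 0. With a pseudocount of 10 CPM, the IL-2 dose had 0 higher, the IL-15 dose 0 lower, and 5 IU/mL IL-2 and 5 IU/mL IL-15 at day 10 against naive had 1 lower each instead of 2. With TMM scaling, the IL-2 dose and the IL-2v dose each had 1 lower instead of 0, and 5 IU/mL IL-2v at day 10 against naive had 4 instead of 7. The IL-2 dose had 0 higher with at most 5% mitochondrial UMIs or the mean of single cells, and 1 lower where ribosomal protein and mitochondrial genes were left out of the totals; the IL-2v dose had 1 lower with the mean of single cells. Without day 3, the IL-2 dose had 0 higher and 2 lower (Foxp1 and Btg1) and the IL-15 dose 0 lower; without day 5, the IL-2 dose had 0 higher and the IL-15 dose 0 lower; without day 10, the IL-2 dose had 0 higher and the IL-2v dose 1 higher (Myb) and 1 lower (Btg1). The cause was not tested. TMM scaling moved the median of all genes most for 50 IU/mL IL-2v against no cytokine at day 5, from 0.30 to -0.09. No paired analysis was possible because the labels carry no replicate numbers to block by; the pairs of the cytokine, dose and day comparisons are libraries matched on the other labels. Depth limits Dtx1 in activated cells (2 to 74 UMIs) and the order of libraries for Tob1.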
